A study of Mus musculus with 4 samples.

Results

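The genes examined here encode the subunits of INO80, SRCAP and TIP60/EP400, the 3 chromatin complexes built around the ATPases RUVBL1 and RUVBL2. The 32 genes were taken from a list of subunits that was chosen with earlier results of these data known. All 32 were found among the 21779 protein-coding genes of the RefSeq table of GRCm38.p6. They comprise 12 genes of INO80 alone, 3 of SRCAP alone (Srcap, Znhit1 and Actr6), 3 of SRCAP and TIP60 (Vps72, Dmap1 and Yeats4), 11 of TIP60/EP400 alone, and 3 of all complexes (Ruvbl1, Ruvbl2 and Actl6a). The question put to the data was which of these genes carry a peak of RUVBL2, a subunit of all 3 complexes, in the hypothalamus.

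RUVBL1 and RUVBL2 are related AAA+ ATPases that assemble into a ring. In INO80 and SRCAP the ring serves as a scaffold for a large motor ATPase that moves nucleosomes or exchanges histones, and SRCAP exchanges the histone H2A for its variant H2A.Z near gene starts. TIP60/EP400 joins a motor of the same family, EP400, to the acetyltransferase KAT5, which modifies histones H4 and H2A. The complexes share small subunits, among them actin-like proteins and the YEATS-domain reader YEATS4.

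ChIP-seq, the sequencing of DNA recovered with an antibody from fixed chromatin, was done for RUVBL2 on the hypothalamus of wild-type male C57BL/J mice aged 8 weeks, with 2 ChIP libraries and 2 input libraries. All groups share this genotype, age and tissue, and no treatment is given. The values used are the 2 lists of peaks deposited for the ChIP libraries, 1 per library. The labels do not say whether replicates 1 and 2 stand for separate animals or pools, so their spread may be technical, and the tissue mixes many cell types.

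Replicate 1 listed 3943 peaks and replicate 2 listed 6403, with a median pileup at the summit of 16 and 22 reads. Joining the peaks that overlapped between the lists gave 3111 shared regions. A gene is said to hold a peak or shared region when its midpoint lies in the gene or within 3 kb of a gene end. With 1 condition there is no contrast to test, and every count below is a description. Of 5 neuronal and 7 hypothalamic marker genes, Rbfox3 and Pomc held a shared region (16.7% of the 12, about the share of all protein-coding genes, 17.2%). Neither region was at a start, with replicate 1 summits 190903 bp (Rbfox3) and 5221 bp (Pomc) downstream of the nearest listed one. Of the other markers in these sets, only Tubb3 held a peak, in replicate 2. None of the 12 markers of astrocytes, oligodendrocytes, microglia and endothelium held a peak in either list. Over all protein-coding genes, 20.9% held a peak of replicate 1 and 32.6% a peak of replicate 2. A peak near a gene does not measure its expression.

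The sequences printed here are those just upstream of the gene starts, and the first set is from members that held a shared region. They are the genes of the 3 motor ATPases, then Epc2, Morf4l1 and Meaf6, which had the highest folds in replicate 1 among the other TIP60/EP400 genes in the promoter table. Each run is the 150 bases before a gene start in RefSeq (build GRCm38.p6), written 5′ to 3′ on the strand of the gene. The runs are not the peaks themselves. Of the summits at the genes of this first set, only that of Ino80 in replicate 2 (−19 bp) lay within the printed bases, and the others lay downstream of the start. Capitals mark the letters GGGCGG of the Sp family, the letters CCAAT of NF-Y and the letters CCGGAAG of the ETS family, on either strand, so that CCGCCC is the first of these read on the other strand.
Srcap, chr7:127511833-127511982, plus strand: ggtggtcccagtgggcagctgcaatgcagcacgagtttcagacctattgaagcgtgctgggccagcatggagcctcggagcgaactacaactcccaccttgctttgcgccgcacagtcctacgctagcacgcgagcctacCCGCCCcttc
Ino80, chr2:119477688-119477837, minus strand: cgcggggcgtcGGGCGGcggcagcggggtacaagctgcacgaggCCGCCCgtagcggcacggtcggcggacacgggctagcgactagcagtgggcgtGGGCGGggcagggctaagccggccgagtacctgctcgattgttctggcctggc
Ep400, chr5:110770718-110770867, minus strand: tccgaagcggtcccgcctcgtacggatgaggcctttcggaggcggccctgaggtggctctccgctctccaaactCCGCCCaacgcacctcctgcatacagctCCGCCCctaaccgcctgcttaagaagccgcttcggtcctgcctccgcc
Epc2, chr2:49451336-49451485, plus strand: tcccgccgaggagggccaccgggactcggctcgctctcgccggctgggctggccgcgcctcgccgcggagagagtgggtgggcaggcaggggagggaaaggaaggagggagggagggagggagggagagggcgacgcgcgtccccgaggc
Morf4l1, chr9:90114821-90114970, minus strand: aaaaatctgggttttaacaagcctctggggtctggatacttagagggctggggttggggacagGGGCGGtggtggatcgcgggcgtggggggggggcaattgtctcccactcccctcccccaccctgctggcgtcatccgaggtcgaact
Meaf6, chr4:125084984-125085133, plus strand: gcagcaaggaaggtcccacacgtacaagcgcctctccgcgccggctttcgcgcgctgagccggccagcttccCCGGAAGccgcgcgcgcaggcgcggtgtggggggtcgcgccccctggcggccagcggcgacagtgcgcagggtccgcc

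The second set is from members that held no shared region: the gene of the protein that was immunoprecipitated, its partner Ruvbl1, and Dmap1 and Nfrkb, which held no peak in either list. The capitals have the same meaning.
Ruvbl1, chr6:88465259-88465408, plus strand: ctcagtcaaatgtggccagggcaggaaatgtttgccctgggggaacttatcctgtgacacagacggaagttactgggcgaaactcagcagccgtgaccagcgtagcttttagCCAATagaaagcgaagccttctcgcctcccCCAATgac
Ruvbl2, chr7:45434465-45434614, minus strand: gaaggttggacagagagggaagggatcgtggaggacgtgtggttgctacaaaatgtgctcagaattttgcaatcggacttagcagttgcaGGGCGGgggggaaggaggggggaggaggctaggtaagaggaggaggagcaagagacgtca
Dmap1, chr4:117682226-117682375, minus strand: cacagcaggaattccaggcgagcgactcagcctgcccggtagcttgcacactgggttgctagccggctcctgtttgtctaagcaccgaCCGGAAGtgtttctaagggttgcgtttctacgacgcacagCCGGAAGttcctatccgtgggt
Nfrkb, chr9:31386042-31386191, plus strand: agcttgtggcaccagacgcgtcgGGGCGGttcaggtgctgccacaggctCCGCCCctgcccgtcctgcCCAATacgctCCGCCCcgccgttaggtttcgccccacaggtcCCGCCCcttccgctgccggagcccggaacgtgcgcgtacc

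Of the 32 genes, 21 held a shared region (65.6%, exact Clopper-Pearson 95% interval 46.8 to 81.4), against 17.2% of all protein-coding genes. Taking replicate 1 by itself, 22 genes were marked (68.8%), where the background over protein-coding genes was 20.9%. Taking replicate 2 by itself, 26 were (81.2%), where the background was 32.6%. A further 5 genes held a peak of replicate 2 only (Ruvbl1, Actr5, Actr6, Mrgbp and Uchl5), Vps72 held a peak of replicate 1 only, and 5 held none (Ruvbl2, Yeats4, Dmap1, Ino80b and Nfrkb). The interval treats genes as independent draws, which the subunits of a set list are not, and it measures no spread between libraries or animals. The members were chosen with earlier results of these data known, so the gap to the background is a description and not independent support.

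Of the 11 genes of TIP60/EP400 alone, 10 held a shared region (90.9%, 95% interval 58.7 to 99.8), and the remaining gene, Mrgbp, held a peak of replicate 2. INO80 had 8 of 12 (66.7%, 34.9 to 90.1). The 3 genes of SRCAP alone had 2 (66.7%, 9.43 to 99.2), namely Srcap and Znhit1. None of the 3 genes of SRCAP and TIP60 held one, so that SRCAP with these genes had 2 of 6 (33.3%, 4.33 to 77.7) and TIP60/EP400 with them 10 of 14 (71.4%, 41.9 to 91.6). Of the 3 genes common to all complexes, Actl6a alone held a shared region. How these complexes compare thus turns on where the common genes are counted. The difference between complexes was not tested, and these intervals, which treat genes as draws, cannot decide it.

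**Figure D1:**
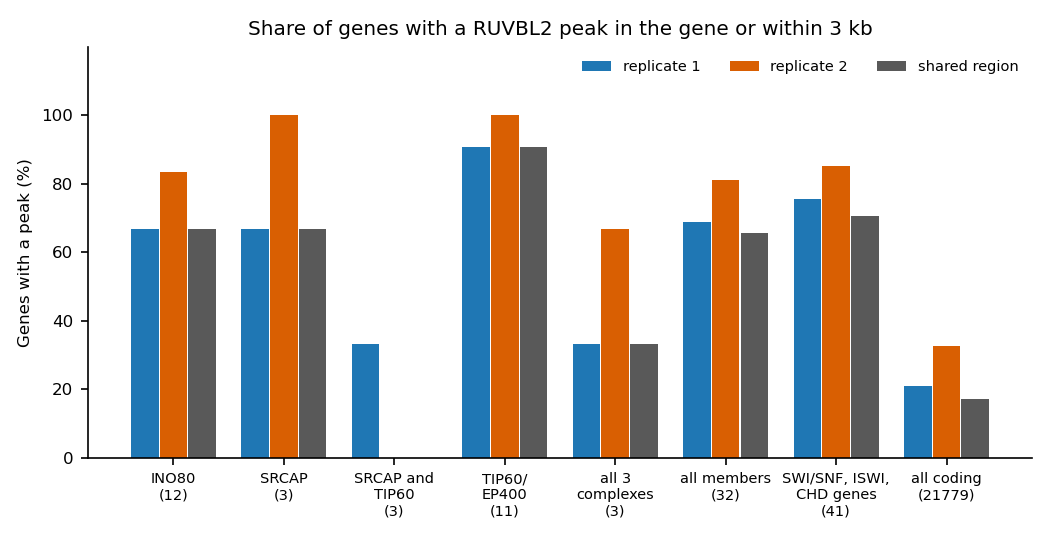
Share of genes (percent, from 0) with a peak of replicate 1, a peak of replicate 2 or a shared region in the gene or within 3 kb, for each complex, all 32 members, the SWI/SNF, ISWI and CHD genes and all protein-coding genes, with the number of genes in brackets. For shared regions the 11 genes of TIP60/EP400 alone reach 90.9%, or 71.4% when the 3 it has in common with SRCAP are added, and all protein-coding genes 17.2%.

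Members are grouped below by role, as assigned for this report, and 17.2% of all protein-coding genes held a shared region. The genes of the 3 motor ATPases all held a shared region at their start. Folds over background are the values of the authors' peak caller, given here and below for replicate 1 first and replicate 2 second, each with its 95% counting interval in brackets. At Srcap (chr7:127511852-127512919), the motor of an H2A.Z-depositing complex, the fold over background was 12.6 (9.45 to 16.4) and 19.2 (15.1 to 24.0). These peaks ranked 11 of 3943 and 9 of 6403 by p, and their summits lay 239 and 151 bp downstream of the gene start. Ino80 (chr2:119477020-119478110) had folds of 7.40 (4.80 to 10.9) and 12.8 (9.57 to 16.9), with summits at +91 and −19 bp from its listed start (plus is downstream), which lies inside the annotated gene. Ep400 (chr5:110770256-110770689) had the lowest folds of the 3, at 5.55 (3.36 to 8.70) and 3.14 (2.11 to 4.52), and its replicate 2 summit stood on a background of 7.92 reads, against a median background of 3.52 in that list. The order Srcap, Ino80, Ep400 was the same in both lists, but the interval of Ino80 overlapped that of Srcap in both lists and that of Ep400 in replicate 1.

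The acetyltransferase module of TIP60, as grouped here with Ing3, held shared regions in 5 of 5 genes, against 17.2% of all protein-coding genes. EPC1 and EPC2 are alternative scaffolds that tie KAT5 to the complex. Epc1 held 2 regions. The stronger (chr18:6489904-6491331) lay in the gene interior, 25491 bp from the nearer end, with folds of 14.2 (10.4 to 18.9) and 23.9 (19.1 to 29.4). It ranked 13 and 5 by p in the 2 lists, and the replicate 2 fold was the highest of any member. The other (chr18:6515920-6516640) spanned the gene end with the higher coordinate and had folds of 9.25 (6.29 to 13.1) and 5.91 (4.07 to 8.31). Exons and internal starts were not annotated in the table used, so the interior region was not assigned to a start.

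Epc2 (chr2:49451151-49452454) had folds of 10.6 (7.57 to 14.6) and 12.1 (9.0 to 16.0). Its summits lay 94 and 91 bp downstream of the listed start, 3 bp apart. The catalytic subunit gene Kat5 (chr19:5609840-5610426) sat at the other extreme, with folds of 3.31 (1.91 to 5.4) and 2.79 (1.74 to 4.28) and ranks of 3816 of 3943 and 6177 of 6403. The peak at Kat5 was thus near the end of both lists, while both Epc genes were among the first 100 peaks of each. Ing3, a reader of H3 trimethylated at lysine 4, had folds of 5.55 (3.36 to 8.70) and 5.89 (4.17 to 8.10). Meaf6, a small subunit that TIP60 shares with other acetyltransferase complexes, had 8.30 (5.53 to 12) and 6.69 (4.55 to 9.51).

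Trrap, the large scaffold that contacts transcription activators, held a region (chr5:144767859-144768871) with folds of 4.20 (2.42 to 6.85) and 6.45 (4.45 to 9.07). Its summits lay at −695 and −136 bp from the listed start, 559 bp apart. That start lies inside the annotated gene, and both summits were also inside it, 362 and 921 bp from its nearer end. Among the 5 reader genes, Morf4l1, whose chromodomain binds methylated histone H3, had the highest folds, 8.92 (6.03 to 12.8) and 11.1 (8.24 to 14.6), at chr9:90113706-90114782. Its summits lay 472 and 872 bp downstream of the start. The bromodomain gene Brd8 had 6.17 (4.07 to 8.99) and 7.97 (5.62 to 11.0), with summits 1 bp apart. The midpoint of that region was 136 bp from an end of Kif20a and 375 bp from the end of Brd8. Mbtd1, with MBT repeats that bind methylated histone H4, had 4.32 (2.44 to 7.16) and 5.07 (3.19 to 7.71), where a single peak of replicate 2 joined 2 peaks of replicate 1, and an end of Utp18 lay 157 bp from the midpoint.

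The other readers were weaker or unmarked. Mrgbp, which binds MORF4L1, held a peak of replicate 2 only, 1602 bp downstream of its start, with a fold of 2.74 (1.61 to 4.41) and a rank of 6377 of 6403. Yeats4, a reader of acetylated histone tails in SRCAP and TIP60, held no peak, the nearest lying 152319 bp away in replicate 1 and 151904 bp in replicate 2.

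**Figure D2:**
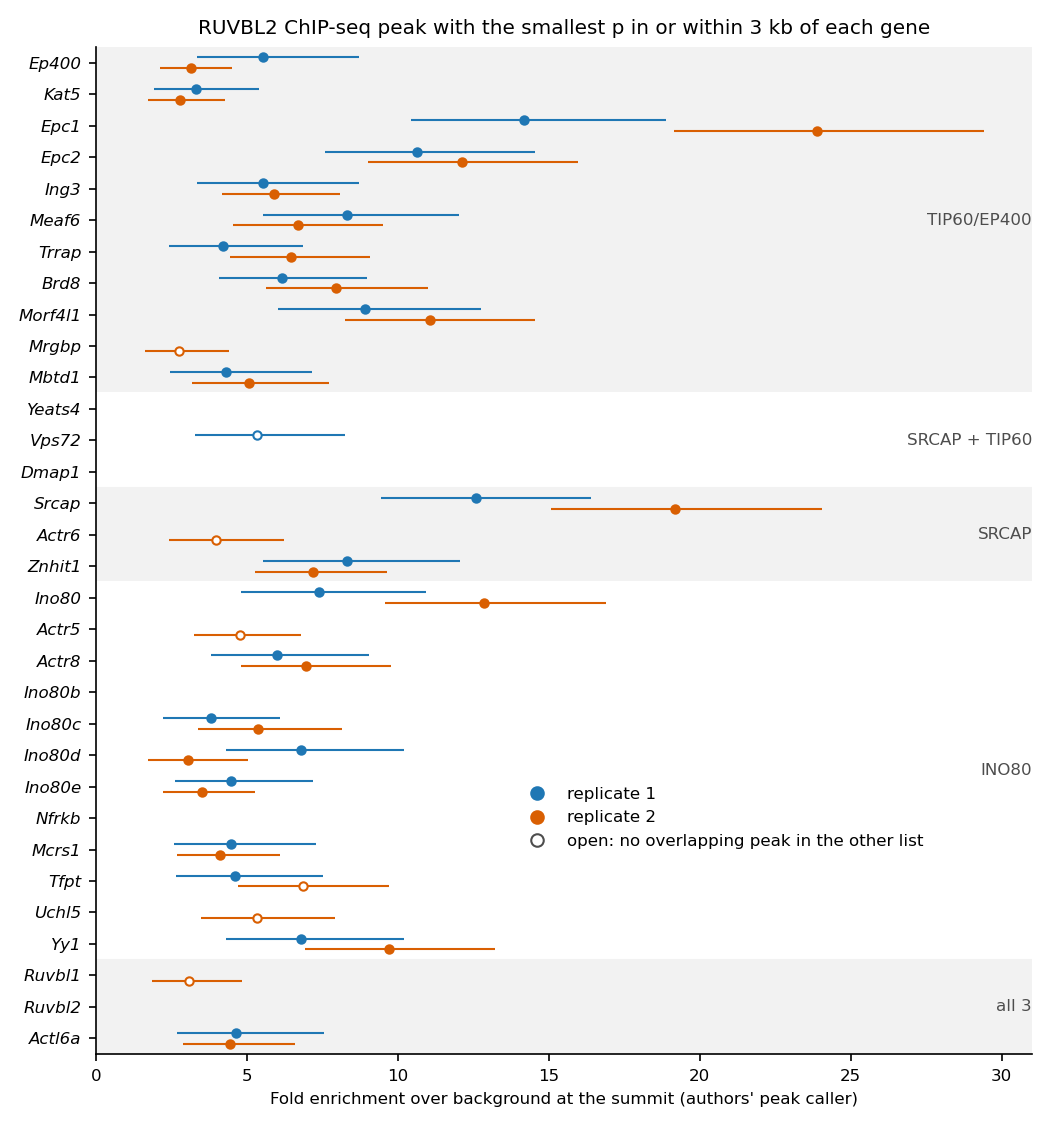
Fold enrichment over background (horizontal axis, linear) of the peak with the smallest p in or within 3 kb of each member gene, by complex, with 95% counting intervals as bars; open points have no overlapping peak in the other list and genes without a point held no peak. Epc1 and Srcap lie farthest right in both replicates, and Ruvbl2, Yeats4, Dmap1, Ino80b and Nfrkb have no point.

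Of the 3 genes grouped here as H2A.Z exchange subunits (Znhit1, Vps72 and Dmap1), 1 held a shared region, against 17.2% of all protein-coding genes. Srcap, the motor of an H2A.Z-depositing complex, was counted with the ATPases and also held one. Znhit1, a zinc-finger subunit of SRCAP, had folds of 8.32 (5.54 to 12.1) and 7.20 (5.25 to 9.64) at chr5:136986958-136987744. The midpoint was 332 bp from an end of Plod3 and 608 bp from the end of Znhit1, so both genes are in reach. Vps72, which binds H2A.Z directly, had a peak in replicate 1 with a fold of 5.32 (3.27 to 8.24), and the nearest peak of replicate 2 lay 68490 bp away. Dmap1, a subunit of SRCAP and TIP60, held no peak, the nearest lying 232511 bp away in replicate 1 and 154180 bp in replicate 2.

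Of the 4 actin-like genes, 2 held a shared region (17.2% of all protein-coding genes did) and the other 2 a peak of replicate 2. Actr8, part of the arm of INO80 that binds DNA between nucleosomes, had folds of 6.0 (3.82 to 9.03) and 6.95 (4.79 to 9.78). Actl6a, which also belongs to SWI/SNF complexes, had 4.62 (2.67 to 7.55) and 4.44 (2.89 to 6.58), with summits 350 and 558 bp downstream of the start. Actr5 of INO80 had a replicate 2 fold of 4.78 (3.25 to 6.79), and Actr6 of SRCAP 3.98 (2.41 to 6.24), with the Actr6 summit 8 bp downstream of a start.

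The animal-specific subunit genes of INO80 held shared regions in 5 of 7 cases, and the core genes Ino80b and Ino80c in 1 of 2 (17.2% of all protein-coding genes). Yy1, which encodes a sequence-specific transcription factor that binds INO80, held 2 regions around its start. The downstream one (chr12:108793727-108794767) had folds of 6.78 (4.32 to 10.2) and 9.70 (6.93 to 13.2), with summits 1127 and 1143 bp downstream of the start. The upstream one (chr12:108792203-108793225) had 3.97 (2.40 to 6.22) and 5.24 (3.46 to 7.64), and its summits lay at −942 and −238 bp. The downstream fold was the higher in both lists, with overlapping intervals.

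The remaining INO80 regions at these genes were in the last 50% of at least 1 list by p. Ino80d had folds of 6.78 (4.32 to 10.2) and 3.04 (1.72 to 5.05), the second at rank 6342 of 6403. Ino80c had 3.79 (2.23 to 6.11) and 5.38 (3.38 to 8.16). Ino80e had 4.48 (2.63 to 7.20) and 3.50 (2.23 to 5.27), with an end of Hirip3 325 bp from the midpoint and the end of Ino80e 118 bp away. Mcrs1, a subunit shared with another acetyltransferase complex, had 4.46 (2.58 to 7.29) and 4.11 (2.67 to 6.08).

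Tfpt counts as marked through a neighbour. Its shared region (chr7:3617299-3617728; folds 4.61 and 5.04) lay 2811 bp beyond the end of Tfpt and 166 bp from an end of Ndufa3. At the start of Tfpt, 76 bp from an end of Prpf31, replicate 2 alone listed a peak, with a fold of 6.86 (4.70 to 9.70). Uchl5, a deubiquitinase bound to INO80 and to the proteasome, held a replicate 2 peak with a fold of 5.35 (3.47 to 7.91), with its summit at −342 bp from the start, and the peak was nearer to an end of Ro60 (57 bp). Ino80b held no peak, the nearest lying 12740 bp away in replicate 1 and 20316 bp in replicate 2. Nfrkb held none either, with nearest peaks 105169 and 105494 bp away.

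Neither gene of the ring itself held a shared region. Ruvbl2, the gene of the immunoprecipitated protein, had its nearest peak 26308 bp away in replicate 1 and 26341 bp in replicate 2. Ruvbl1 had a replicate 2 peak with a fold of 3.08 (1.87 to 4.83) at rank 6008 of 6403, and it lay 2621 bp beyond the gene, 34817 bp downstream of the start. In replicate 1 the nearest peak to Ruvbl1 lay 420244 bp away. The absence of a listed peak is not a level of 0, since the lists hold only peaks past a threshold, and the smallest summit pileup listed was 10 reads in replicate 1 and 11 in replicate 2.

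The members' shared regions ran from the first to the last part of the lists. Of their 23 regions, 8 were in the first 10% of replicate 1 by p, 8 in the first 10% of replicate 2, and 6 (26.1%) in the first 10% of both, against 7.68% of all 3111 shared regions. The 6 were those of Ino80, Srcap, Epc2, Morf4l1 and Znhit1 and the interior region of Epc1. At the other end, 9 were in the last 50% of replicate 1 and 6 in the last 50% of replicate 2. The median fold was 6.0 in replicate 1 and 5.91 in replicate 2, against 5.07 and 5.32 over all pairs of a protein-coding gene and a shared region.

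**Figure D3:**
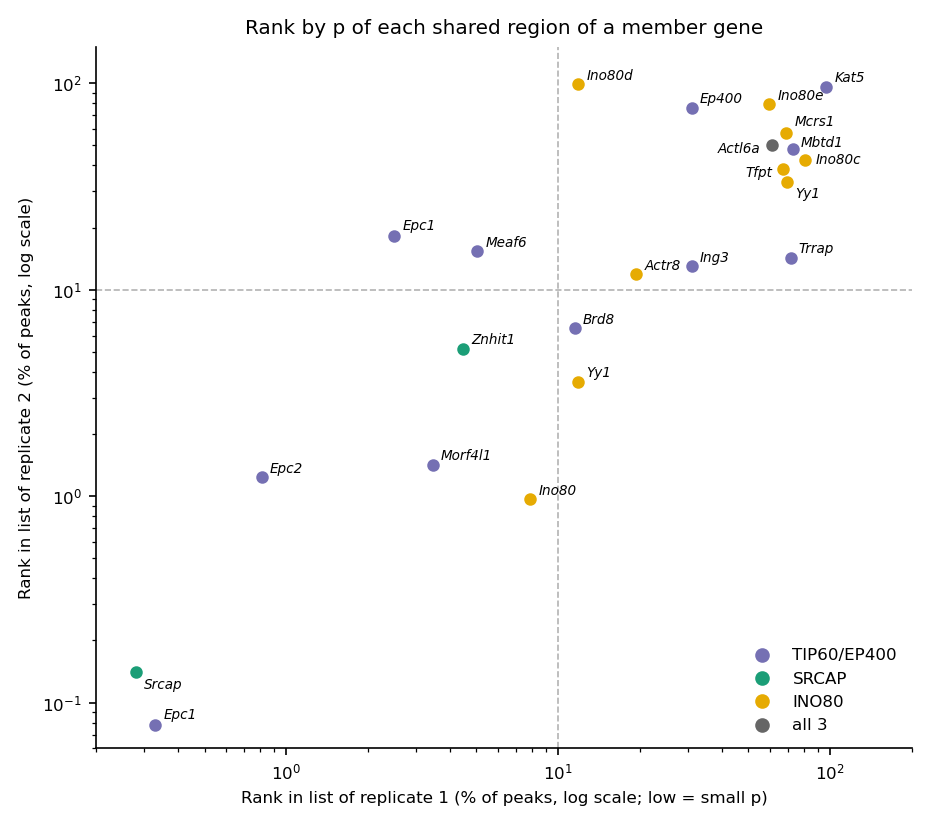
Rank by p of the best peak of each of the 23 shared regions, as a percent of the peaks of its list (both axes logarithmic, low values are small p), coloured by complex; dashed lines mark 10%. Srcap, Epc1 and Epc2 lie at the lower left, the other region of Epc1 and Meaf6 pass the line in replicate 1 only, and 6 regions are below both lines.

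Among the top 1000 peaks of each list, 10 of the 32 genes held a shared region (31.2%), against 3.08% of all protein-coding genes. With a −log10 q of at least 5 in both lists, 11 did (34.4%), against 8.50%. The 10 were Ino80, Srcap, Actr8, Epc1, Epc2, Meaf6, Brd8, Morf4l1, Znhit1 and Yy1, and Ing3 was added under the second rule. Ep400, Kat5, Trrap, Mbtd1 and Actl6a were lost under both rules, as were Ino80c, Ino80d, Ino80e, Mcrs1 and Tfpt.

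A list of 41 genes of the other ATP-dependent remodellers (SWI/SNF, ISWI and CHD) held shared regions in 29 cases (70.7%), against 21 of 32 members (65.6%). Among the top 1000 peaks of each list, 3 of the 41 genes held a shared region (7.32%, with 31.2% of the members and 3.08% of all protein-coding genes). With a −log10 q of at least 5 the gap was smaller: 8 of the 41 did (19.5%, with 34.4% of the members and 8.50% of all). In rank, 1 of their 33 gene and region pairs (3.03%) was in the first 10% of both lists. Their median folds were 4.62 and 4.97. The highest replicate 2 fold among them was 8.85 (6.35 to 12) at Chd2, which had 6.13 in replicate 1. The difference between these genes and the members was not tested, and both lists were chosen with earlier results of these data known.

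Of 11 genes that act with these complexes or are close relatives of their subunits, Ing4 and Ing5 held a shared region (18.2%, close to the 17.2% of all protein-coding genes). A peak of replicate 1 was held by 4 of the 11 (36.4%, against 20.9%) and a peak of replicate 2 by 6 (54.5%, against 32.6%). Ing5, a reader of H3 trimethylated at lysine 4, had folds of 9.75 (6.72 to 13.7) and 14.3 (10.9 to 18.5), with summits 118 and 128 bp downstream of its start. Ing4 had 3.99 (2.26 to 6.61) and 5.53 (3.62 to 8.12). The H2A.Z gene H2az1 had peaks in both lists that did not overlap (folds 4.87 and 4.66), H2az2 had one in replicate 2 (4.82), and the H2A.Z chaperone gene Anp32e one in replicate 1 (4.62). Actb and Morf4l2 had a peak of replicate 2 only, and Actl6b, Jazf1, Hells and Yy2 had none.

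Most of the placed regions lay at a gene start. The promoter table held 25 of the 32 genes, all but Actr5, Actr8, Epc1, Brd8, Vps72, Ino80c and Ino80d, and distances are to the nearest start listed for a gene. Of the 17 shared regions at genes in the table, 15 had their summit within 1 kb of a start in each list. Over all protein-coding genes, 2732 (replicate 1) and 2733 (replicate 2) of 3885 gene and region pairs did. Those 3885 pairs include genes outside the promoter table, so a place at the start is common and not particular to the members. The other two regions were the downstream region of Yy1 and the region counted for Tfpt. The median summit position was 140 bp downstream of the start in replicate 1 and 85 bp in replicate 2, against 88 and 89 bp over all protein-coding genes. In replicate 1, 11 of the 15 summits were downstream of the start (73.3%, against 65.7% over all protein-coding genes), and in replicate 2, 8 were (53.3%, against 64.9%). Some listed starts lie inside the annotated gene. The summits upstream of such a start at Trrap, Znhit1, Kat5 and Ino80 were still within the gene. The summits of the 2 lists lay a median of 141 bp apart at the members and 92 bp apart over all genes. These replicate 1 values take 1 of 2 peaks tied in p at Mbtd1, with its summit at +249 bp. The other peak, at −339 bp, would count as upstream.

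The promoters of the members were mostly rich in CpG. The ratio of observed to expected CpG in the 300 bases around the start had a median of 0.888 over the 25 members, against 0.577 over 17492 protein-coding genes. Of the 25 members, 21 (84.0%) had a ratio of at least 0.6, against 48.4% of the protein-coding genes. Of those 21, 14 held a shared region (66.7%), and 30.7% of the protein-coding genes with such a promoter did. Members with a shared region had a median of 0.949 (0.524 to 1.34, n = 16) and those without had 0.764 (0.145 to 1.06, n = 9). The highest value is that of Tfpt, whose shared region lies far from its start, and without it the first group had a median of 0.940 and a highest value of 1.06 (n = 15). These ranges overlap: Nfrkb had 1.06 with no peak, and Morf4l1 had 0.546 with a strong one.

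**Figure D4:**
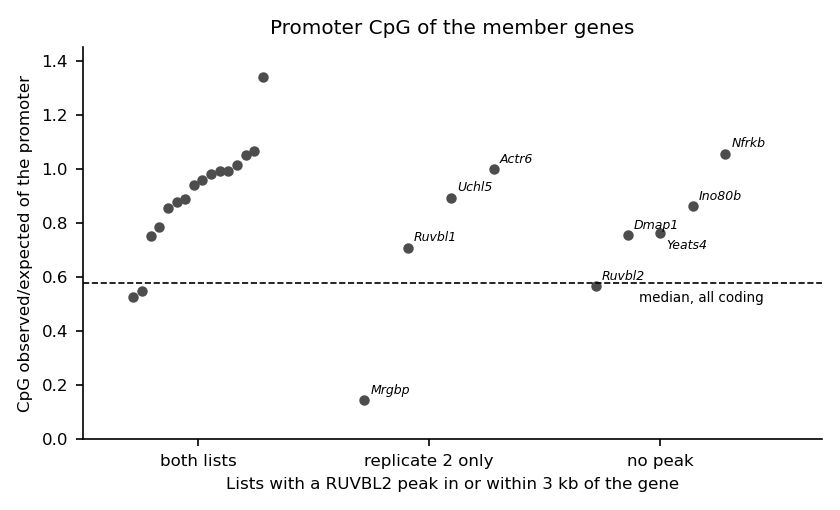
Ratio of observed to expected CpG in the 300-base promoter window of the 25 members in the table, by whether both lists, replicate 2 only or neither list held a peak; each point is a gene and the dashed line is the median of all protein-coding genes, 0.577. Members with a peak in both lists run from 0.524 to 1.34 and overlap those without a peak.

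No motif searched for was shared by all marked members. Matches were counted in the promoter window whether or not the shared region reached them. The counts with a region include Tfpt, whose region lies far from its start and whose promoter carries CCGGAAG and CCAAT. The Sp-family letters GGGCGG were in 18 of the 25 promoters (72.0%, against 46.3% of all 17492 and 74.1% of the CpG-rich ones), in 11 of the 16 with a shared region and in 7 of the 9 without. The ETS-family letters CCGGAAG were in 8 (32.0%, against 11.9% and 19.9%), in 5 of 16 and 3 of 9. Of these 8, Meaf6 with a region and Dmap1 without a peak are among the runs printed above. The NF-Y letters CCAAT were in 12 (48.0%, against 39.2% and 37.9%), in 6 of 16 and 6 of 9, and Ruvbl1 carries it 2 times in its printed run. The E-box CACGTG was in 4 of the 16 with a region (Kat5, Mbtd1, Znhit1 and Ino80e) and in 0 of the 9 without, and so in 16.0% of the 25, against 7.91% of all promoters and 11.5% of the CpG-rich ones.

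The short cAMP response element TGACG was in 9 promoters (36.0%), against 23.8% of all promoters and 36.0% of the CpG-rich ones. It was in 7 of the 16 with a region, Tfpt included, and in 2 of the 9 without. Its palindrome TGACGTCA, counted within it, was at Ing3. The NRF1 letters GCGCATGCG were in the promoter of Yeats4 alone (4.0%, against 2.41% of all and 4.54% of the CpG-rich ones). The YY1 letters AAGATGGCG and the letters CTCGCGAG were in none of the 25, against 1.92% and 1.31% of all promoters. In CpG-rich promoters these shares were 3.64% and 2.52%. TATAAA was in those of Ruvbl1 and Tfpt (8.0%, against 13.3% of all and 5.85% of the CpG-rich ones). All searches covered the 300-base window on both strands, and a match describes letters only.

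Members with a shared region had a median gene length of 26468 bp, those without 14276 bp, and all protein-coding genes 17217 bp. Counting only regions within 3 kb of a gene end left the number of members at 21, since Epc1 also held a region at its end.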

How the data were processed

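Hypothalamic chromatin was crosslinked for 10 min with 1% formaldehyde, and the libraries had 15 PCR cycles and paired reads of 150 bp, per the labels. Tools listed in the submitters' processing notes are MACS2 2.1.0 for peaks, Bowtie2 2.3.4.1, Trimmomatic 0.33, bcl2fastq 2.17 and ChIPseeker, with GRCm38 as build. Their settings, the caller's control and the read totals were not given in the sources used here. The deposited peak lists, 1 per ChIP library and so not pooled, give each peak a fold (a ratio of summit to background, with 1 added to each), a −log10 p, a −log10 q (at least 1.32 and 1.34) and a score of 10 times the −log10 q, all the authors' values. The list of replicate 2 was assigned by its sample, although its peaks are named Hyp3 and the title says Hyp2.

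From these values, the whole-number summit pileup and background were solved (100% of peaks matched within 0.0001), after a check on simulated peaks. Fold intervals are exact Poisson 95% intervals of the pileup at a fixed background, and cover counting error only, as reads carry no molecular identifiers. Shared regions join peaks of both lists that overlap by at least 1 bp. Genes and promoters came from RefSeq tables of GRCm38.p6, without genes placed in the first 3000000 bp of a chromosome other than Y. A start is the base after the first 250 of a 300-base promoter window, and a gene's composition and motifs come from its most upstream window. Ranks follow the authors' −log10 p. All members are named. The members, lists and motifs were chosen with earlier results of these data known. No test was planned or run: there is 1 condition, and inputs had no values of their own here. Python 3.11.15, SciPy 1.17.1 and pandas 2.3.3 were used.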

Additional observations from a re-analysis of the deposited data

How the results depend on the processing

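Of 62 alternative values for the counts of genes, 50 stayed within 1.5 times the main count and 12 did not. With a −log10 q of at least 5 in each list, 11 members held a shared region, 3 genes of INO80 alone and 6 of TIP60/EP400 alone, and 14 members held a peak of replicate 1 (10.4% of all protein-coding genes did). With the top 1000 peaks, 10 members held a shared region, 3 of INO80 and 5 of TIP60/EP400, and 11 and 13 members held a peak of replicates 1 and 2 (6.18% and 5.70% of all genes). With an overlap of at least 50% of each peak, INO80 had 5, and 15 of all members, against 12.3% of all protein-coding genes. With each region given to the nearest gene end only, SRCAP had 1, Znhit1 being lost to Plod3, and 18 of all members, against 13.7%. With midpoints within 1 kb of a listed start, chosen after seeing the data, INO80 had 4 of the 8 genes in the promoter table (15.5% of all genes there). Moving the genes common to SRCAP and TIP60, also added later, left 2 of 3 for SRCAP and 10 of 14 for TIP60/EP400. Using 1 list in place of both gave 22 members with replicate 1 and 26 with replicate 2 (20.9% and 32.6% of all protein-coding genes). The counts were then 8 to 10 for INO80, 3 for SRCAP and 10 to 11 for TIP60/EP400. No paired analysis was possible because no test was run and the inputs gave no values of their own. Comparison with genes of CpG-rich promoters was also chosen after seeing the data. Median summit pileups of 16 and 22 reads limit what either list can show of weak peaks.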
